A study of Mus musculus with 4 samples.

Results

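Tissue inhibitors of metalloproteinases (TIMPs), the membrane-anchored inhibitor Reck and 5 matrix metalloproteinases (MMPs) were followed in mouse testes that lack the luteinizing hormone receptor Lhcgr. The genes were Timp1, Timp2, Timp3, Timp4, Reck, Mmp2, Mmp9, Mmp11, Mmp14 and Mmp23. Each was taken by its symbol from the probe sets that carry a single gene symbol, with the highest-mean probe set kept per gene. All 10 were found, each with 1 probe set, among 19938 genes measured. The groups were 2 testis samples of Lhcgr KO male mice and 2 of control WT male mice, compared on 1-colour Affymetrix whole-transcript arrays. Both groups had received busulfan, an alkylating drug that removes germ cells, at 44 mg/kg, and testes were collected 4 weeks later. The labels give neither the age or strain of the mice, nor the structure of the Lhcgr allele, nor whether replicates came from separate animals. The p-values therefore reflect how far these samples differ from each other, and that spread may be technical only. The tissue is bulk testis, so fewer cells of a type and less RNA per cell cannot be told apart in any value below.

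MMPs are zinc-dependent endopeptidases that are made as inactive precursors and cut collagens, laminins and other proteins outside the cell. TIMPs are small secreted proteins that occupy the active site of the mature enzyme, and each inhibits an overlapping but different range of MMPs and related ADAM enzymes. In the testis, Sertoli cells, peritubular cells, Leydig cells and macrophages are known to make members of both families, which act on the basement membrane around the tubules and on the barrier between Sertoli cells.

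The comparison asked how these genes differ when the testis cannot respond to luteinizing hormone. In the Lhcgr KO testes Timp1 fell 5.70-fold and Timp2 fell 1.68-fold. The inhibitors Timp3, Timp4 and Reck and the enzymes Mmp2, Mmp9, Mmp11, Mmp14 and Mmp23 did not pass the test. None of the 10 genes was called higher. Of all 19938 genes tested, 2.14% were called lower and 0.963% higher in the knockout at an adjusted p under 0.05 (limma, Benjamini-Hochberg adjustment), against 2 of 10 lower and 0 of 10 higher here. At an unadjusted p under 0.05, Mmp9 and Mmp11 also passed, both higher in the knockout. That level is loose: in the same limma fit, an unadjusted p of 0.0511 stood beside an adjusted p of 0.223. The share of all genes that pass it was not counted, so these passes are not read as a result.

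Because Timp1 and Timp2 are the members that changed, their promoter windows are shown. Each runs from 250 bases before to 50 bases after the RefSeq start of the gene on GRCm38.p6, read 5′ to 3′ on the strand of the gene. Capitals mark matches on either strand to TGAGTAA (a variant of the AP-1 site), TGANTCA (the AP-1 consensus), AGGAAG (an ETS or PEA3 motif), GGGCGG (a GC box) and CCAAT. The window of Timp1 is chrX:20869916-20870215 on the plus strand, and that of Timp2 is chr11:118355362-118355661 on the minus strand.
Timp1: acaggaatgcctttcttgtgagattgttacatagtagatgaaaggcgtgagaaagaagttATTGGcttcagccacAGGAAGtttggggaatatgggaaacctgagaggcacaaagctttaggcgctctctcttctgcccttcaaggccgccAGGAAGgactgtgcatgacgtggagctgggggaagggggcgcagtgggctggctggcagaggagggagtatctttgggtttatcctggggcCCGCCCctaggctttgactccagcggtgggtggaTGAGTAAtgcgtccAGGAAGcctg
Timp2: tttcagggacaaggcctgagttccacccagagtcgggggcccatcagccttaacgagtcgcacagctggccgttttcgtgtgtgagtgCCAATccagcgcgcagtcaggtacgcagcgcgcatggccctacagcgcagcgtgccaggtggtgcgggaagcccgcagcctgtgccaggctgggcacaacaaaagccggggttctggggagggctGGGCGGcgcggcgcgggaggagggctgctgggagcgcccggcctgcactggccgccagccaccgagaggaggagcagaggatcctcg

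The Timp1 window holds the variant TGAGTAA with its first base at position 27 of the gene, followed by AGGAAG at position 41. It holds AGGAAG at 175 and 99 bases before the start as well and, both on the opposite strand, a GC box 8 bases before it and CCAAT 190 bases before it. TGAGTAA occurs in 2.64% of the 32544 distinct promoter windows of the table, AGGAAG in 35.1%, GGGCGG in 35.9% and CCAAT in 37.4%. The Timp2 window holds 1 GC box, 37 bases before the start, and CCAAT 162 bases before it. It has no match to the AP-1 variant or the ETS motif. The AP-1 consensus TGANTCA, which 7.79% of windows hold, is in neither window. Windows were found for 8 of the 10 genes, and Timp1 alone among these 8 holds TGAGTAA. The motifs were chosen after the Timp1 window was read, so its matches were known beforehand and test nothing. Of the letters searched, TGACGTCA (the cAMP response element, in 1.8% of windows) and CAAGGTCA (a site of the steroidogenic factor NR5A1, in 1.53%) were in none of the 8 genes' windows. These are descriptions of letters. The arrays measured no binding, and a missing match says nothing about the factor.

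Timp1, a secreted inhibitor of most soluble MMPs that also acts as a growth factor, had the largest change of the 10 genes. Its probe set (10598976) measured 85.8 and 84.2 intensity units in Lhcgr KO replicates 1 and 2, and 498 and 471 in control WT replicates 1 and 2. The groups lay far apart, and the arrays within each group lay close together. The mean log2 intensity was 6.41 ± 0.02 (SD, n = 2) in the knockout and 8.92 ± 0.06 in wild type. In limma the log2 fold change, with its SE, was -2.51 ± 0.11 (adjusted p = 0.000598), a fall of 5.70-fold with a 95% confidence interval of 4.74 to 6.84. It ranks 38 from the bottom among the 19938 log2 fold changes, and 31 among the genes called lower. Both knockout values lie under the lower quartile of all probe sets on their arrays, which was 106 and 107 units. No detection calls were used, so the fold may understate the change. Subtracting 16, the lowest deposited value, from all intensities gave a log2 fold change of -2.76, and adding a further 32 gave -2.14.

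Timp2 inhibits MMPs and, at low amounts, also bridges the precursor of MMP2 to MMP14 at the cell surface, the step by which MMP2 is activated. It measured 3136 and 3089 units in Lhcgr KO replicates 1 and 2 and 5332 and 5110 in control WT replicates 1 and 2 (probe set 10393559). Again both knockout arrays lay below both wild-type arrays, with little spread inside a group. The mean log2 intensity was 11.60 ± 0.02 (SD, n = 2) against 12.35 ± 0.04, and limma gave a change of -0.75 ± 0.11 log2 units (SE; adjusted p = 0.0214). This is 1.68-fold lower, with a 95% confidence interval of 1.40 to 2.01. The call was lost without either knockout array, where the change was -0.76 (adjusted p = 0.161, without replicate 1) and -0.74 (adjusted p = 0.176, without replicate 2). It was kept without either wild-type array, at -0.72 (adjusted p = 0.0352, without replicate 1) and -0.78 (adjusted p = 0.0325, without replicate 2).

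Timp3, the TIMP that stays bound to the extracellular matrix and also inhibits ADAM enzymes, showed overlapping groups. It measured 2000 and 2091 units in the knockout and 2026 and 1640 in wild type. Its log2 fold change was 0.17 ± 0.14 (adjusted p = 0.468), with a 95% confidence interval of -0.16 to 0.49. The data thus leave room for a rise of up to 1.41-fold, and for a fall of at most 1.12-fold.

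Timp4, a TIMP best known from heart, brain and fat tissue, measured 156 and 198 units in the knockout and 150 and 128 in wild type. Both knockout arrays lay above both wild-type arrays, the nearest pair differing by 5.92 units. The log2 fold change was 0.34 ± 0.16 (adjusted p = 0.247; interval -0.03 to 0.71). Reck, which inhibits MMP2, MMP9 and MMP14 from the cell membrane, measured 1043 and 1191 units in the knockout and 860 and 1067 in wild type, and the groups overlapped. Its log2 fold change was 0.22 ± 0.15 (adjusted p = 0.383; interval -0.13 to 0.57).

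**Figure D1:**
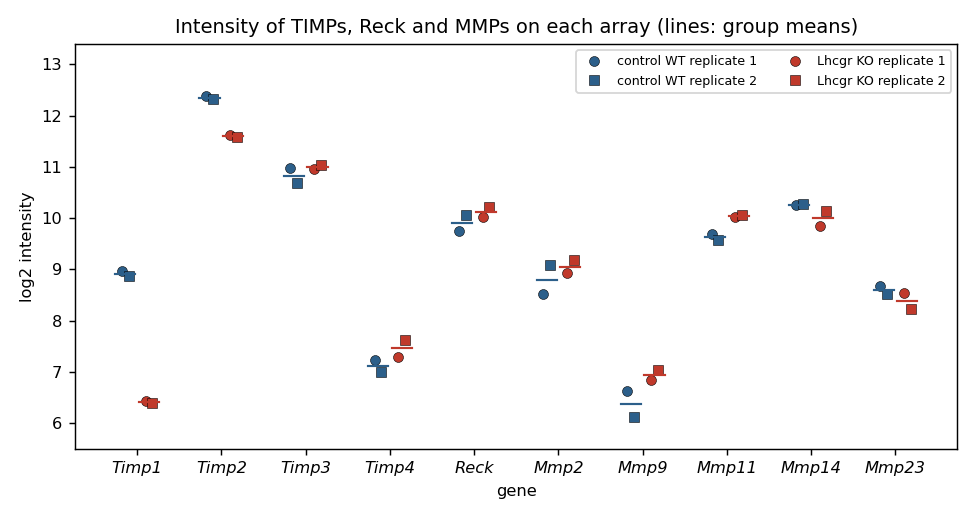
Log2 intensity (vertical axis) of the 10 genes (horizontal axis) on each array, with control WT in blue and Lhcgr KO in red, circles for replicate 1, squares for replicate 2 and short lines at the group means. Timp1 and Timp2 show both knockout arrays clearly below both wild-type arrays, with means of 6.41 against 8.92 and 11.60 against 12.35, while the other genes lie close to or overlap their wild-type values.

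Mmp14, a membrane-bound collagenase, cleaves the MMP2 precursor in the complex that Timp2 bridges. It measured 928 and 1128 units in the knockout and 1220 and 1240 in wild type. The knockout arrays lay below the wild-type arrays but differed more from each other than the wild-type arrays did. The log2 fold change was -0.27 ± 0.13 (adjusted p = 0.276; interval -0.58 to 0.05). Mmp2, gelatinase A, which cuts denatured collagen and type IV collagen, measured 485 and 579 units in the knockout and 367 and 542 in wild type. The groups overlapped, and the log2 fold change was 0.25 ± 0.20 (adjusted p = 0.457; interval -0.23 to 0.73). It was -0.032 without wild-type replicate 1 and 0.53 without wild-type replicate 2. Of the 3 genes of this activation complex, Timp2 alone passed the test. The differences between these genes' changes were not tested.

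Mmp9, gelatinase B, measured 115 and 132 units in the knockout and 99.5 and 70.0 in wild type. All 4 values are low, near or under the lower quartile of their arrays, and both knockout arrays lay above both wild-type arrays. The log2 fold change was 0.56 ± 0.18 (adjusted p = 0.160; interval 0.12 to 0.997), the largest upward value of the 10 genes, and it did not pass the test. Without wild-type replicate 1 it was 0.81 and passed, and without wild-type replicate 2 it was 0.30 and did not. The fit that passed had wild-type replicate 2 as its only control, an array high in epididymis and rete testis markers (described below). Mmp11, stromelysin-3, an enzyme of stromal cells that furin-type proteases activate inside the cell, measured 1036 and 1076 units in the knockout and 824 and 766 in wild type. Its groups did not overlap either, with a log2 fold change of 0.41 ± 0.11 (adjusted p = 0.115; interval 0.14 to 0.68). The intervals of Mmp9 and Mmp11 lie above 0, but they are not adjusted for the number of genes tested.

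Mmp23, a membrane-anchored enzyme of reproductive tissues, measured 371 and 302 units in the knockout and 410 and 369 in wild type. The groups overlapped narrowly, and the log2 fold change was -0.22 ± 0.14 (adjusted p = 0.366; interval -0.56 to 0.12). Over the 10 genes the median log2 fold change was 0.19, against 0.07 for all genes. Both knockout arrays lay above both wild-type arrays for 3 of the 10, a pattern that 36.8% of all genes show, and below them for 3 of the 10, which 22.4% of all genes show. Neither count stands far from its share of all genes.

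**Figure D2:**
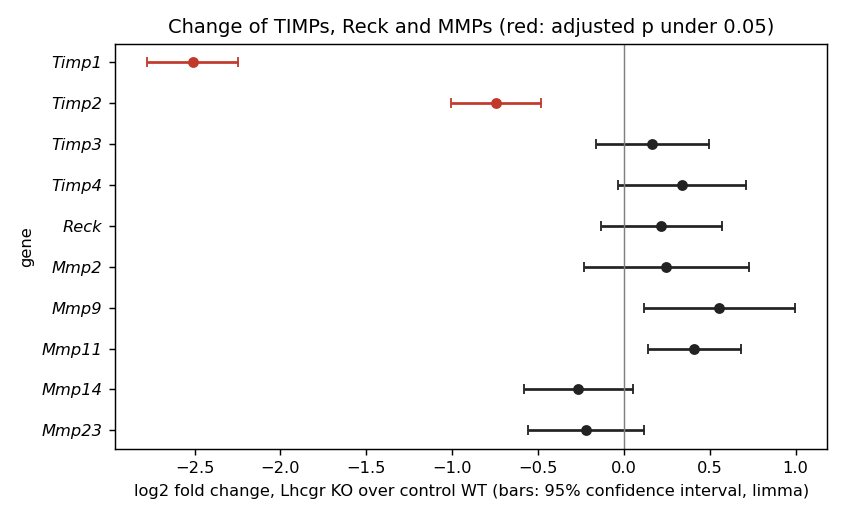
Log2 fold change of each gene, Lhcgr KO over control WT (horizontal axis), with the 95% confidence interval from limma as bars, and red for genes with an adjusted p under 0.05. The intervals of Timp1 (-2.77 to -2.25) and Timp2 (-1.01 to -0.48) lie below 0, and none of the other 8 genes passed the test.

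The 10 genes differed in how well replicates agreed. Across all genes the median difference between the 2 arrays of a group was 0.14 log2 units in the knockout and 0.13 in wild type, and 95% of genes differed by less than 0.44 and 0.49. Timp1 and Timp2 lay under the medians, with differences of 0.03 and 0.02 in the knockout and 0.08 and 0.06 in wild type. The wild-type arrays differed most in Mmp2 (0.56) and Mmp9 (0.51), beyond the range of 95% of genes. Their directions were opposite: replicate 2 was the higher array for Mmp2 and the lower array for Mmp9.

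Several of these genes share their locus with another gene in RefSeq. Timp1, Timp3 and Timp4 lie inside the synapsin genes Syn1, Syn3 and Syn2, which encode proteins of synaptic vesicles, and the gene Cep295nl lies inside Timp2. Syn1 measured 138 and 144 units in the knockout and 152 and 137 in wild type (log2 fold change -0.04 ± 0.12, adjusted p = 0.853). Cep295nl measured 220 and 177 against 206 and 211 (-0.07 ± 0.14, adjusted p = 0.751). Neither overlapping gene passed the test at the 2 loci where the TIMP fell. Syn3 and Syn2 had log2 fold changes of 0.10 and 0.09 and did not pass either. Mmp2 partly overlaps Gm45472, which has no value here, and Mmp23 partly overlaps Mib2. Mib2 measured 423 and 367 units in the knockout and 322 and 349 in wild type (0.23 ± 0.13, adjusted p = 0.299).

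The genes outside the 10 whose profile over the 4 arrays was nearest to Timp1 were Exo1, a DNA repair exonuclease, and Ctxn1, a small membrane protein. Likeness was the Euclidean distance between log2 values centred on each gene's own mean, and was 0.18 and 0.24 log2 units. Exo1 had a log2 fold change of -2.63 ± 0.11 and Ctxn1 of -2.39 ± 0.13. Among the nearest to Timp2 was Mgat2, an N-glycan-processing enzyme of the Golgi, at 0.03. Mgat2 had a log2 fold change of -0.76 ± 0.11. With 4 arrays such a distance mainly reflects the difference between the groups.

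Over 7 related lists, 95 of 100 listed genes were measured, of which 2 rose and 3 fell, beside 0.963% higher and 2.14% lower of all genes. These counts lie near those shares. None of 17 other MMPs passed the test. Their median log2 fold change was 0.16, and the lowest p belonged to Mmp16, a membrane-type MMP, at 0.41 ± 0.12 (adjusted p = 0.121). For 10 of the 17, both knockout arrays lay above both wild-type arrays, beside 36.8% of all genes. Among 11 ADAM proteins, a family with the same metalloproteinase fold, 2 fell and none rose. Adam23 fell by 1.61 log2 units, from 655 and 505 units in wild type to 203 and 176 in the knockout (-1.61 ± 0.16, adjusted p = 0.00691). Adam23 is an adhesion protein of the family without protease activity, so it is no sheddase. Adam9, an active sheddase, measured 902 and 1110 units in the knockout and 1576 and 1810 in wild type (-0.76 ± 0.15, adjusted p = 0.0496), and passed in 9 of 15 alternatives. Without wild-type replicate 2 it was among the genes no longer called.

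Of 18 ADAMTS enzymes, secreted proteases that cut proteoglycans and procollagens, 1 rose and none fell, beside the same shares of all genes. Adamts9 measured 1814 and 1808 units in the knockout and 928 and 1160 in wild type (0.80 ± 0.14, adjusted p = 0.0356). It did not pass without wild-type replicate 1. The list had a median of 0.16, and 11 of its 18 members had both knockout arrays above both wild-type arrays, beside 36.8% of all genes. None of 11 genes of the plasmin system and of MMP precursor activation passed. The urokinase gene Plau had the lowest p of that list, at -0.34 ± 0.16 (adjusted p = 0.255). None of 9 other protease inhibitors of the matrix passed, the nearest being Cst3, cystatin C, an inhibitor of cysteine proteases, at -0.56 ± 0.12 (adjusted p = 0.0677).

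Of 13 partners and receptors of MMPs and TIMPs, 1 rose and 1 fell, beside 0.963% higher and 2.14% lower of all genes. Thbs2, a matrix glycoprotein that binds MMP2 and promotes its uptake by cells, rose by 1.57 ± 0.18 log2 units (adjusted p = 0.0104). Itga3, an integrin subunit that has been described as a partner of Timp2 on cells, measured 85.3 and 93.1 units in the knockout and 165 and 213 in wild type (-1.07 ± 0.15, adjusted p = 0.0194). Cd63, a tetraspanin described as a cell surface partner of Timp1, measured 1017 and 733 against 1211 and 1294 (-0.54 ± 0.17, adjusted p = 0.150) and did not pass. It is named here after its values were seen. None of 16 genes of the basement membrane and the interstitial matrix, the substrates of these enzymes, passed the test (median 0.12). Lama2, a laminin chain, had the lowest p of them, at 0.53 ± 0.14 (adjusted p = 0.112). All 5 calls in these lists were lost when either knockout array was left out, in fits that called 18 and 23 genes in all.

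**Figure D3:**
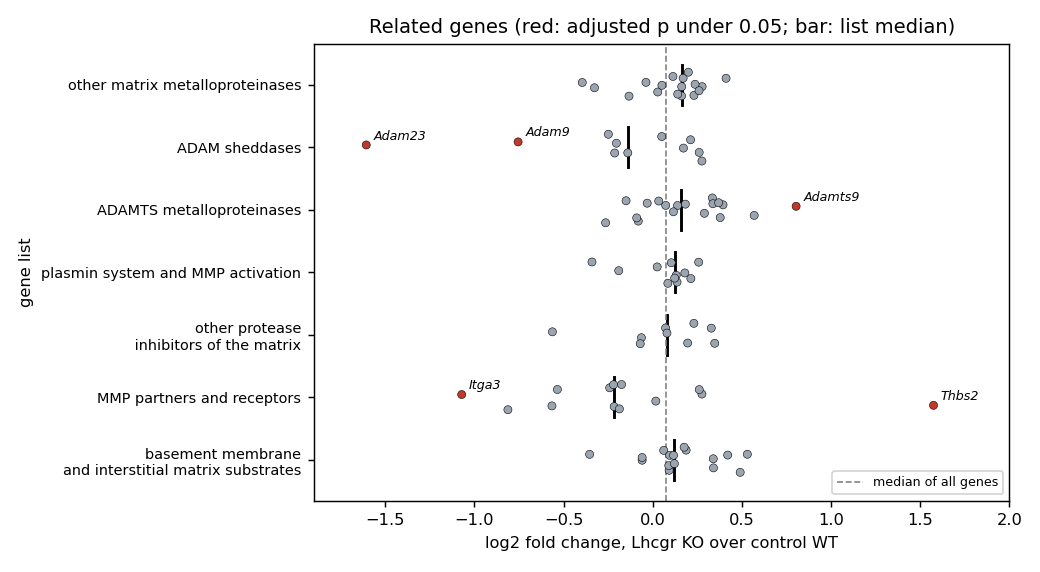
Log2 fold change, Lhcgr KO over control WT (horizontal axis), of each measured gene in the 7 related lists (rows, points spread vertically for legibility), with red for an adjusted p under 0.05, a black bar at each list's median and a dashed line at the median of all genes (0.07). Most points lie within 0.5 log2 units of 0, and Adam23, Adam9, Itga3, Adamts9 and Thbs2 passed the test.

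Markers of 2 cell types that can make TIMPs and MMPs were lower in the same libraries. Beside the counts given here, 2.14% of all genes were called lower and 0.963% higher. Of 9 adult Leydig cell markers 6 fell, with summed intensities of 3133 to 3893 units in the knockout and 13403 to 24309 in wild type. Of 12 macrophage markers 6 fell, with sums of 5072 to 5314 units in the knockout and 8874 to 11080 in wild type. The part of either cell type in the falls of Timp1 and Timp2 was not tested. The sums also differed inside the wild-type pair, where replicate 1 had 1.81 times the Leydig sum of replicate 2. All markers of that list but Hsd3b6 were higher in wild-type replicate 1, by unlike amounts. Cyp17a1 measured 6973 and 2660 units in wild-type replicates 1 and 2, Sult1e1 1985 and 282, and Hsd3b6 4745 and 5123. Timp1 differed by 1.06 times and Timp2 by 1.04 times in that pair. What these ratios say about the source of either gene was not tested. Sertoli cell markers were present on all arrays, with Sox9 at 3152 and 3285 units in the knockout and 2794 and 2612 in wild type. Of 12 such markers 1 rose, 1 fell and 10 did not pass, with sums of 35636 to 35870 in the knockout and 34412 to 36366 in wild type. None of 9 neutrophil markers passed, and the neutrophil gene S100a8 lay between 90.0 and 111 units on all 4 arrays. Peritubular myoid, stromal and germ cell lists held no called genes, and the endothelial list held 1, higher. Ddx4, a germ cell gene, lay between 83.2 and 105 units on all 4 arrays. Other genes of that list were less even. Zbtb16 measured 334 and 106 units in the knockout and 513 and 419 in wild type. Dazl went the other way, with 245 and 279 against 207 and 199. No marker can be listed at 0, because the lowest deposited value was 16.

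Wild-type replicate 2 stood apart in markers of the epididymis and rete testis, whose sum was 14395 units there and 1604 to 1694 on the other 3 arrays. Against wild-type replicate 1 alone, the log2 fold change was -2.55 for Timp1 and -0.78 for Timp2. With both wild-type arrays it was -2.51 and -0.75. The part of such tissue in either value was not tested. Lhcgr itself was not analysed here, and the genotypes are taken from the labels alone.

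**Figure D4:**
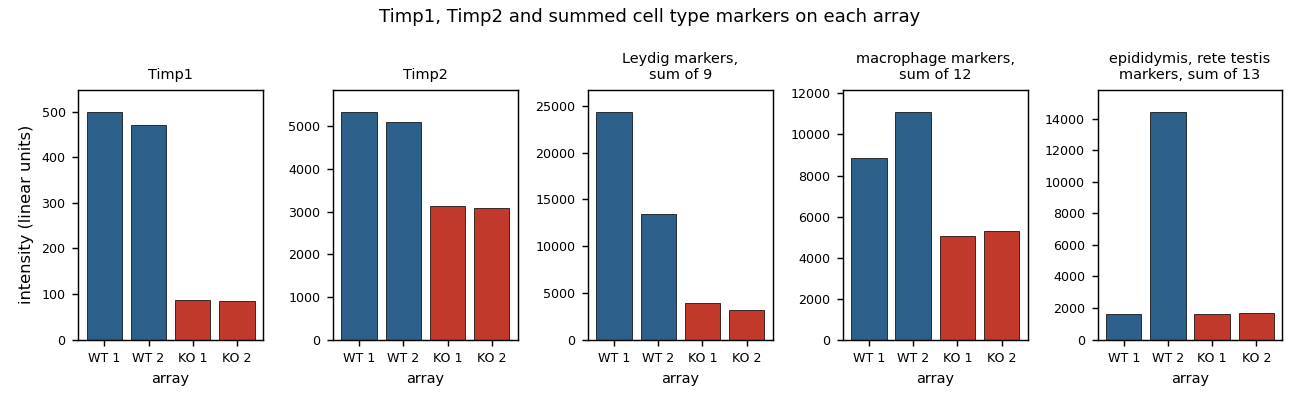
Intensity in linear units (vertical axes, from 0) on each of the 4 arrays for Timp1, Timp2 and the summed markers of adult Leydig cells, macrophages and the epididymis with rete testis, blue for control WT and red for Lhcgr KO. Timp1 (498 and 471 against 85.8 and 84.2) and both cell type sums are lower on the knockout arrays, and the epididymis sum is high on wild-type replicate 2.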

How the data were processed

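Total RNA was labelled with biotin and hybridised to whole-transcript arrays, 2 per group, per the labels' protocols. The authors deposited 1 linear intensity per probe set and array. The submitters' processing notes name the build mm9, while background correction, summarization and normalization were not stated by the labels or the table. Array medians ran from 198 to 215 units and the lowest value was 16. Had that amount been added, folds of dim genes would be compressed. Precision is limited by the number of arrays.

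Of 28856 probe sets, 21789 have 1 symbol, 1621 several and 5446 none listed, and 21698 were matched to RefSeq (GRCm38.p6, used for names, neighbours and promoter windows). The highest-mean probe set stood for each of 19938 genes. Log2 values were compared with limma 3.58.1 in R 4.3.3 (lmFit, eBayes, no covariates; two-sided p-values, Benjamini-Hochberg adjusted over all genes, threshold 0.05). The code was tested on simulated data. The genes followed and the lists were chosen with earlier results of these data known, and the promoter motifs after the Timp1 window was read. Named were the 10 genes; in each related list up to 3 genes past the threshold, or the 1 with the lowest p; and the 2 nearest profiles, of which 1 is not reported here. Alternatives were quantile normalization, median centring, filters on the lowest 25% or 50% of genes, averaged or separate probe sets, eBayes with trend or a robust prior, 32 added, 16 subtracted, each array left out, and the replicate number as a block.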

Additional observations from a re-analysis of the deposited data

How the results depend on the processing

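Timp1 kept its direction and its call in all 14 alternatives that gave it a value, with log2 fold changes from -2.76 to -2.14 and adjusted p from 3.6e-05 to 0.0390. With the lowest 50% of genes left out Timp1 was not tested, which left 1 of the 10 genes called lower. Timp2 kept its direction in all 15 alternatives (-0.81 to -0.71) and its call in 13, being lost without either knockout array. The other 8 genes kept their direction except Mmp2, whose log2 fold change was -0.032 without control WT replicate 1 and 0.53 without replicate 2. None was called except Mmp9, at 0.81 without control WT replicate 1. The only control in that fit was replicate 2, the array high in epididymis and rete testis markers. With the replicate number as a block, 2 of the 10 genes were lower and 0 higher, with adjusted p = 0.00144 for Timp1 and 0.0370 for Timp2. Of all genes 173 were then higher and 399 lower, and the block changed no call among the 10 genes. Same-numbered arrays showed little shared deviation (r = 0.02 across genes, which are not independent replicates). The labels give no pairing, and this correlation cannot exclude a pairing that touches few genes. After 16 was subtracted, 103 of all genes were higher and 269 lower, against 192 and 426, and 1 related gene was higher. With 32 added, trend, a robust prior or median centring, 5 related genes were lower against 3. Leaving out 1 array at a time gave 0 to 1 of the 10 genes higher and 1 to 2 lower, 0 to 2 related genes higher and 0 to 5 lower, and 2 to 313 of all genes higher and 16 to 726 lower. The low ends came without a knockout array and the high ends without control WT replicate 1, and the cause was not tested. The lone array of a group was there assumed to vary like the other group. No detection calls were used, so signal over background is unknown for the dimmest values, those of Timp1 in the knockout, Timp4 and Mmp9.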

Other observations

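Mmp7, matrilysin, an MMP of glandular epithelia, was high on a single array. It measured 313 units on control WT replicate 2 and between 92.0 and 133 on the other 3 arrays, and was chosen after its values were seen. The same array held high values of epididymis and rete testis markers, such as Adam7 at 2101 units there and 51.2 to 60.4 on the other 3. The part of such tissue in the Mmp7 value was not tested. On that array Mmp14 (1240 units) had its highest value of the 4 arrays, and Timp3 (1640), Timp4 (128), Mmp9 (70.0) and Mmp11 (766) had their lowest. That array also had the lowest median of the 4, at 198 units. How many of all genes had their highest or lowest value there was not counted. Mmp2 measured 542 units there and 367 on control WT replicate 1.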
